A study of Homo sapiens with 7 samples.

Results

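Twin peaks were GATA6 peaks that had another peak of the same list within 1 kb. GATA6 binding was mapped by chromatin immunoprecipitation followed by sequencing (ChIP-seq) in LS174T, a colorectal carcinoma line of human origin kept in culture, and the deposited peak list held 7568 peaks. A twin peak lay on chromosomes 1 to 22 or X, had a height of 10 to 39 fragments and a length under 400 bp, and had its summit within 1000 bp of the summit of any other peak on the same chromosome. These criteria were met by 429 peaks. Of the 5796 peaks in that range of height and length, they made up 7.40% (95% Wilson interval 6.76 to 8.10%), and the other 5367, which had no summit within 1000 bp, were the comparison peaks. The twin peaks were chosen by their height, length and spacing, so these values are given as a description.

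The series comprised 7 libraries of LS174T cells grown with serum, and the labels name no treatment. In 3 of them GATA6 was precipitated (anti-hGATA6), 1 was input DNA with no antibody, and 1 each was made for H3K27ac, H3K4me3 and H3K4me1, which were not analysed here. The list gave 1 set of values for GATA6 and none per library. There was therefore no spread between replicates to test a difference against, and no p-value is given. Intervals of medians and shares cover the spread or counting error of peaks within this list, and they treat linked peaks as independent, which makes them too narrow.

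GATA6 is a zinc-finger transcription factor that binds short DNA elements with a GATA core. In the epithelium of endoderm-derived organs, the intestine among them, it acts with other factors at enhancers and promoters. Such elements often carry several binding sites for the same or for cooperating factors, and a peak list can show nearby sites as separate peaks or as 1 wider peak, depending on their distance and on the fragment size. Positions below are those of hg19, and no gene or sequence is assigned to them here.

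Twin peaks came mostly as pairs. The 429 peaks belonged to 255 groups linked by summits within 1000 bp, of which 244 held 2 peaks and 11 held 3. In 164 groups both of 2 members or 2 of 3 peaks met the criteria, in 5 groups all 3 did, and in 86 groups 1 did. Successive twin peaks formed 172 pairs, and these pairs carry the values on spacing and on heights. All 124 further peaks with a summit within 1000 bp were outside the range of height or length.

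The summits of a pair lay a median of 493.5 bp apart (95% interval of the median 428 to 534, interquartile range 373 to 709, full range 125 to 991). Spacings of 301 to 500 bp were the most frequent class, with 70 of the 172 pairs (40.7%). Below 301 bp lay 18 pairs, from 501 to 700 bp 39, and from 701 to 1000 bp 45. Between 300 and 400 bp alone there were 41 pairs, against 16 between 200 and 300 bp and 11 between 900 and 1000 bp. The number of pairs thus fell on both sides of this class. Peaks of the list did not overlap, the narrowest was 175 bp long and the smallest gap was 41 bp. This limits how close summits can lie, and the fall below this class was not tested against that limit. Over all successive peaks of the list the same class held 54 pairs, and the count fell to 26 between 900 and 1000 bp and to 9 between 1700 and 1800 bp.

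**Figure D1:**
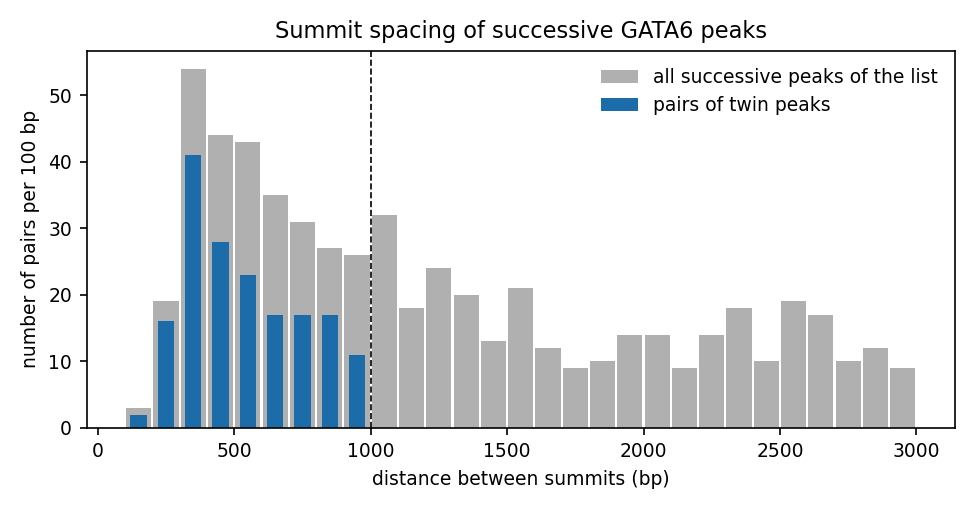
Distance between the summits of successive GATA6 peaks (x axis, bp) against the number of pairs per 100 bp (y axis), for all peaks of the list (grey) and for pairs of twin peaks (blue); the dashed line marks 1000 bp. The class from 300 to 400 bp is the tallest in both, with 54 and 41 pairs.

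Peaks of a pair did not touch. The gap between their edges had a median of 226 bp (interquartile range 135 to 448), and the smallest was 41 bp, which was also the smallest gap between any successive peaks of the list. In 70 pairs the gap was narrower than 175 bp, the length of the narrowest peak. From the start of the first peak to the end of the second, a pair spanned a median of 752.5 bp (full range 430 to 1351), and its peaks covered a median of 68.2% of that span. No peaks of the list overlapped.

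The closest pair lay on chromosome 6 from 113964160 to 113964601. Its summits were 125 bp apart, and its peaks had heights of 13 and 14 fragments. On chromosome 2 from 190387424 to 190387853 the summits were 148 bp apart, with heights of 11 and 12. The next pairs were on chromosome 7 from 104944658 to 104945139 (226 bp), chromosome 22 from 37966054 to 37966533 (244 bp) and chromosome 12 from 81473931 to 81474403 (247 bp). Every peak of these 5 pairs had a height of 10 to 15 fragments, in the lower part of the range.

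The widest pairs reached the edge of the criterion. On chromosome 12 from 53318971 to 53320166 the summits were 991 bp apart, with heights of 18 and 10. A pair on the same chromosome, from 27433349 to 27434699, had a spacing of 990 bp and heights of 37 and 19. The spacing was also 990 bp on chromosome 1 from 239585220 to 239586480, where heights were 15 and 21. Further pairs lay on chromosome 10 from 73857552 to 73858782 (970 bp, heights 25 and 15) and on chromosome 19 from 16307117 to 16308416 (968 bp, heights 14 and 28).

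Heights within a pair differed by a median of 5 fragments. The higher peak of a pair had a median height of 20 fragments (full range 10 to 39) and the lower a median of 13 (10 to 29), and the median ratio of higher over lower was 1.38 (95% interval of the median 1.30 to 1.45). The range of heights limits this ratio. It was under 1.25 in 58 pairs and 2 or more in 32, and 12 pairs had equal heights. The higher peak came first along the chromosome in 82 pairs and second in 78. The exact 95% Poisson intervals of both heights overlapped in 160 of 172 pairs, which is no test of the difference. The smallest ratio at which they did not overlap was 2.31.

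**Figure D2:**
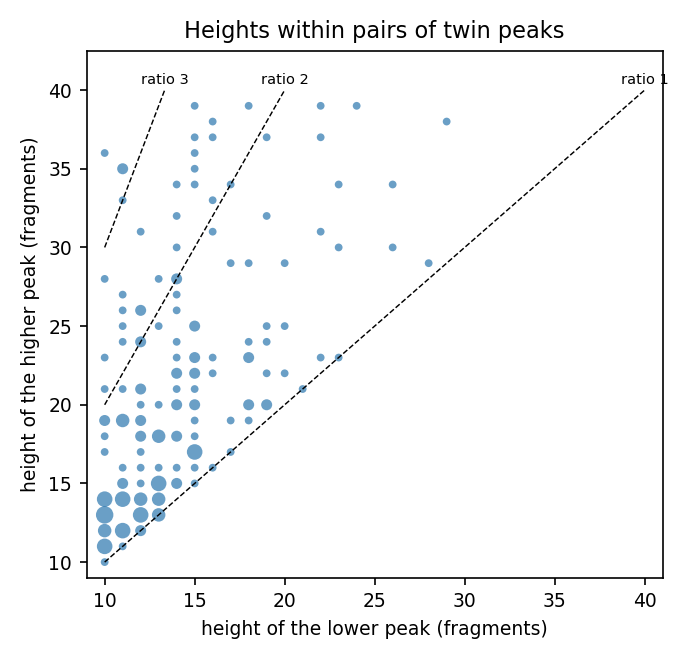
Height of the lower peak (x axis, fragments) against the height of the higher peak (y axis, fragments) for the 172 pairs of twin peaks; the area of a point grows with the number of pairs at that place, and dashed lines mark ratios of 1, 2 and 3. Most pairs lie between the lines for 1 and 2, and 32 lie at or above the line for 2.

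The same ratio was seen between peaks farther apart. For successive peaks in the same range of height and length, the median ratio was 1.39 in 495 pairs over 1 and up to 10 kb apart, 1.38 in 1327 pairs up to 100 kb apart and 1.38 in 2013 pairs up to 1000 kb apart. A ratio of 2 or more was found in 18.6% of twin pairs and in 16.2%, 17.4% and 16.6% of these classes. Heights of the first and second peak were weakly related within twin pairs, with a Spearman rho of 0.15 over 172 pairs, against 0.02, 0.01 and 0.02 in the wider classes. Peaks of a pair share libraries and surrounding control signal, so rho is a description. The ratios of the wider classes lay within the interval of the twin pairs.

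By spacing, the median ratio was 1.29 in 59 pairs up to 400 bp apart, 1.49 in 68 pairs up to 700 bp and 1.40 in 45 pairs up to 1000 bp. The median summed height of a pair was 32, 36 and 32 fragments in these classes. Neither followed the spacing in 1 direction, and rho between spacing and ratio was 0.15.

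The pair with the largest summed height, 67 fragments, lay on chromosome 12 from 104613290 to 104614136. Its peaks had heights of 29 (95% Poisson interval 19.4 to 41.6) and 38 (26.9 to 52.2) at a spacing of 501 bp, with folds of 23.7 and 27.2 over their local background. The pair on chromosome 11 from 129687154 to 129687878 had heights of 39 and 24, and that on chromosome 10 from 99109533 to 99110212 had 22 and 39. On chromosome 2 from 64301139 to 64302206, heights of 34 and 26 went with folds of 8.52 and 33.9, since the local background was 3.99 fragments at the first peak and 0.768 at the second. The peak with the greater height thus had the smaller fold. The last of these 5 pairs, on chromosome 14 from 55593819 to 55594677, had heights of 37 and 22.

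The most unequal pair had a ratio of 3.60. It lay on chromosome 11 from 46295420 to 46296140, with heights of 36 (95% Poisson interval 25.2 to 49.8) and 10 (4.80 to 18.4) and a local background of 0.716 fragments at both peaks. Ratios of 3.18 were found for a pair on chromosome 3 (30517852 to 30518557) and a pair on chromosome 5 (173880844 to 173881898), each with heights of 35 and 11. Next came chromosome 16 from 73238701 to 73239345, with heights of 33 and 11, and chromosome 11 from 13033353 to 13033966, with 10 and 28. In these 5 pairs the Poisson intervals of both heights did not overlap. The pairs were chosen by their ratio, so this is no test of the difference.

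Partners outside the criteria were lower, higher or longer than twin peaks in about equal numbers. Linked to twin peaks were 92 such peaks, of which 31 had a height under 10 fragments and 28 a height of 40 or more. The remaining 33 were in the range of height but at least 400 bp long, and 13 of the high ones were also that long. Their heights ran from 6 to 85 with a median of 22.5, and the longest was 969 bp. With these partners included, 264 pairs held at least 1 twin peak. Their median spacing was 528 bp and their median ratio 1.47, with a largest ratio of 6.54.

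The 11 groups of 3 peaks held 33 peaks, of which 25 were twin peaks. From the first to the last summit they measured 746 to 1865 bp, with a median of 1037 bp. The middle peak was the highest in 7 groups, the first in 2 and the last in 2. In 5 groups all 3 peaks met the criteria. The most compact, on chromosome 9 from 6229627 to 6230764, had heights of 25, 20 and 14 with summits 396 and 350 bp apart. On chromosome 11 from 46295037 to 46296140 the heights were 15, 36 and 10 at spacings of 414 and 398 bp, and on chromosome 7 from 44673468 to 44674968 they were 12, 24 and 11. The other 2 had no peak above 15 fragments, with 13, 15 and 13 (chromosome 1 from 169102656 to 169103899) and with 11, 10 and 13 (chromosome 3 from 58657117 to 58658536).

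In the other 6 groups at least 1 peak was too high, too low or too long. On chromosome 17 from 10380294 to 10382368, a peak of 969 bp and height 64 stood between twin peaks of heights 10 and 21. On chromosome 5 from 16521161 to 16522665, a peak of height 54 stood between 11 and 25, and on the same chromosome from 41526026 to 41527590 a peak of height 23 and 494 bp stood between 9 and 16. The group on chromosome 1 from 28836345 to 28837884 had heights of 11, 18 and 15, of which the first belonged to its 1 twin peak. The highest peak came first on chromosome 22 from 37965436 to 37966533 (heights 50, 14 and 10) and last on chromosome 11 from 27313451 to 27314698 (10, 19 and 31).

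**Figure D3:**
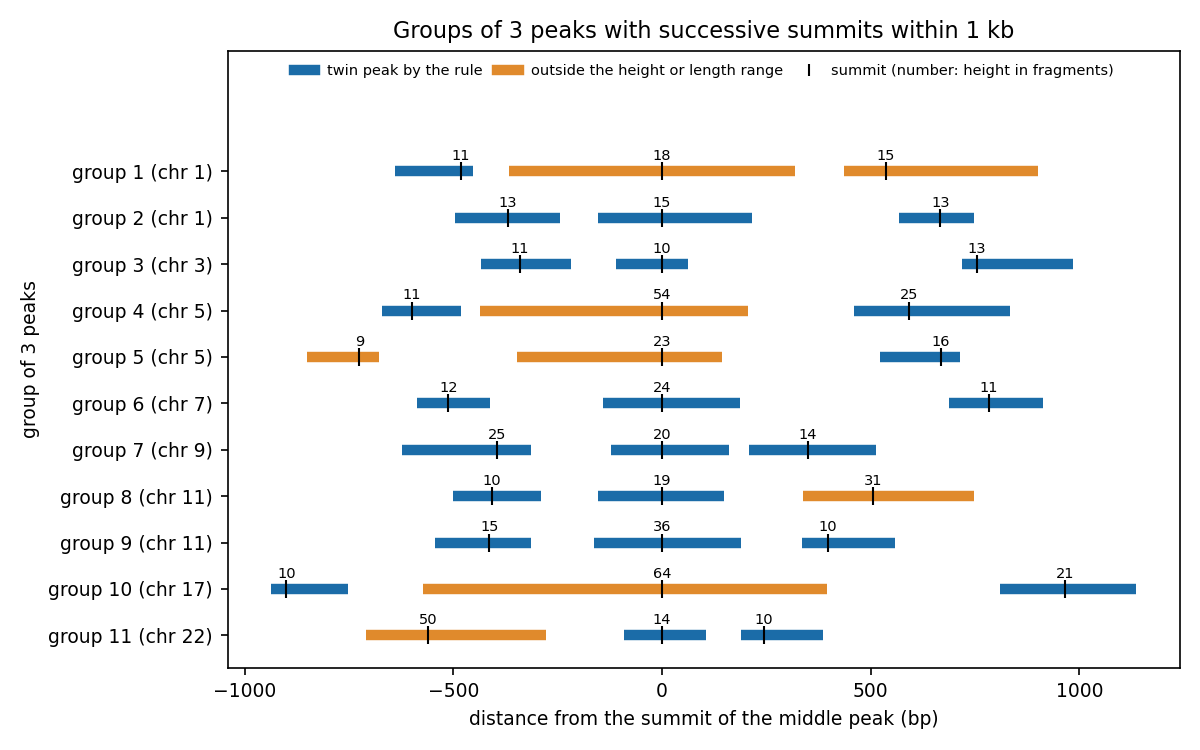
The 11 groups of 3 peaks, each drawn to scale around the summit of its middle peak (x axis, bp; y axis, group); bars are peaks, ticks are summits, numbers are heights in fragments, blue bars are twin peaks and orange bars are peaks outside the range of height or length. The middle peak is the highest in 7 groups.

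Twin peaks had a higher local background than comparison peaks and a smaller fold. The local background is the number of fragments that the authors' score took as the level without binding, computed here as height divided by fold. Its median was 1.22 fragments at twin peaks (95% interval of the median 1.22 to 1.40, interquartile range 0.998 to 1.99) and 1.05 at comparison peaks (0.873 to 1.99). The median fold was 11.7 (11.5 to 12.5) against 13.6. Median heights, 15 and 16 fragments, and median lengths, 237 and 246 bp, lay close together. A fold of 20 or more was reached by 15.4% of twin peaks and 24.2% of comparison peaks, and a fold under 10 was found in 32.9% and 25.2%. The authors' −log10 p had medians of 12.1 and 13.2. With the highest twin peak of each group only, the difference in median fold was −0.61 in place of −1.97, and its interval of −1.61 to 0.36 included 0. With the first of each group it was −1.61 (−2.18 to −0.61). For background, the difference of medians with the first of each group was 0.174 (0.000176 to 0.175), close to 0 at its lower end. With comparison peaks reweighted to the heights of twin peaks, the difference in median −log10 p was −0.48 in place of −1.09. In the same setting the difference in median fold was −1.87 (−2.08 to −1.01) and that in median background 0.175 (0.174 to 0.349).

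The background lies on steps, which limits what a difference of medians can resolve. The difference between the medians of both sets, 0.175 fragments, was as large as 1 of these steps. The floor was 0.489 fragments, and a multiple of 0.998 fragments (tolerance 0.0005 of the value, plus what rounding of the fold allows) was found at 173 twin peaks (40.3%) and at 43.6% of comparison peaks. Multiples of a separate step of 0.175 fragments, of which 0.998 is no multiple, were found at a further 42.9% and 37.8%. Multiples of a finer step of 0.0175 only were found at 15.6% and 14.2%. At the floor were 5 twin peaks, or 1.17% (95% Wilson interval 0.499 to 2.70%), against 238 comparison peaks, or 4.43%. Backgrounds of 1.9 or more were found at 32.4% of twin peaks and 28.1% of comparison peaks. Both ends of the scale thus differed in the same direction.

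Read the other way, twin peaks made up 2.06% of the 243 peaks in range at the floor (95% Wilson interval 0.882 to 4.73%). They made up 5.72% above the floor and under 0.9 fragments, and 7.73% from 0.9 to under 1.5. The share was 9.20% (7.78 to 10.9%) from 1.5 to under 2.5 and 7.52% (5.57 to 10.1%) at 2.5 or more. It did not go on rising with the background past 2.5. The median height of peaks in range rose over the same classes from 13 to 20 fragments, and the part of height in these shares was not tested.

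The lower median fold was not seen in the highest class of height, which held few twin peaks. Among peaks of 10 to 14 fragments the median fold was 10.7 at 196 twin peaks and 12.1 at comparison peaks. It was 10.7 against 14.3 among peaks of 15 to 19 fragments (109 twin peaks) and 13.8 against 16.5 from 20 to 29 (90 twin peaks). Among the 34 twin peaks of 30 to 39 fragments the medians were 24.7 and 23.2, and the median background was 1.40 in both sets. Within chromosomes, 20 of 23 carried at least 5 twin peaks. The median background was higher at twin peaks on 16 of these, lower on chromosome 11, and equal within 0.0005 of its value on chromosomes 7, 16 and 19. Of the same 20 chromosomes, the median fold was lower on 17 and higher on chromosomes 9, 15 and 19.

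A background above that of isolated peaks was also found at peaks whose neighbour lay 1 to 10 kb away. By distance to the nearest summit, the median background was 1.40 fragments up to 400 bp, 1.22 up to 700 bp and 1.05 up to 1000 bp. It was 1.15 from 1 to 2 kb, 1.19 from 2 to 5 kb and 1.22 from 5 to 10 kb, and then 1.05 from 10 to 100 kb and 0.998 beyond 100 kb. The median fold was 10.8 up to 400 bp, between 12.0 and 12.9 in the classes from 401 bp to 10 kb, and 14.3 beyond 100 kb. The share at the floor lay between 0.763% and 1.75% in the 6 classes up to 10 kb, in no order of distance and with intervals that overlapped, and was 3.73% from 10 to 100 kb and 7.01% beyond 100 kb. Isolated peaks thus had the lowest median background and the largest median fold of these classes, and twin peaks up to 400 bp from their neighbour the highest and the smallest.

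**Figure D4:**
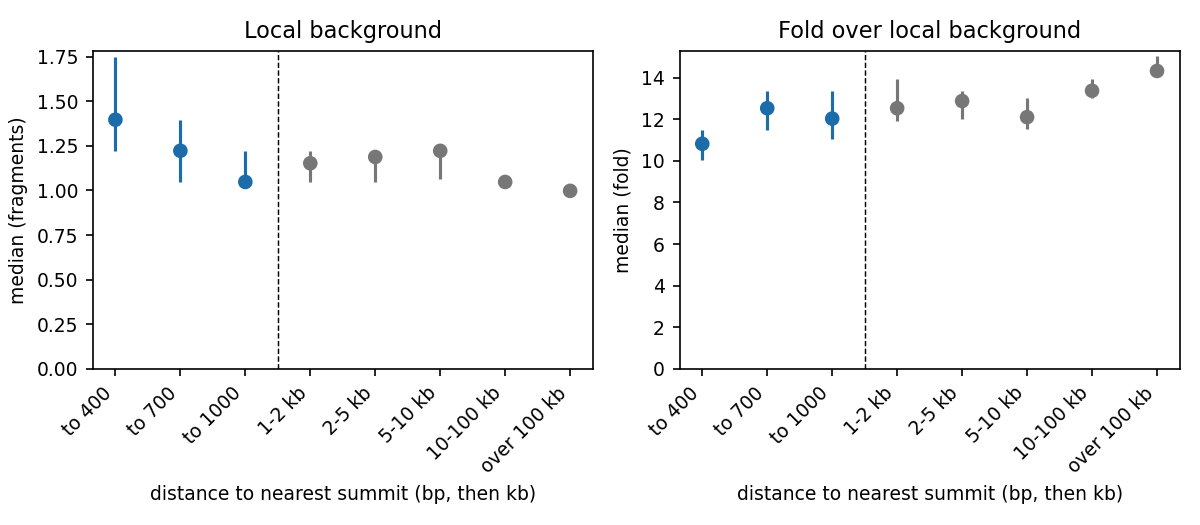
Median local background (left, fragments) and median fold (right) of GATA6 peaks in the range of height and length, by distance to the nearest summit (x axis); bars are 95% intervals of the median, blue points are twin peaks and grey points are comparison peaks, split by the dashed line. The background is highest and the fold lowest up to 400 bp, at 1.40 fragments and 10.8.

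Peaks of a pair did not have equal backgrounds. Their backgrounds differed by a median of 0.508 fragments (95% interval of the median 0.349 to 0.599) and lay within 0.01 of each other in 15 of 172 pairs. The median difference was 0.352 in pairs up to 400 bp apart and 0.773 in pairs over 700 bp apart. For successive peaks over 1 and up to 10 kb apart it was 0.524, up to 100 kb 0.574 and up to 1000 kb 0.508. Backgrounds within 0.01 of each other were found in 8.72% of twin pairs and in 11.7%, 8.36% and 9.79% of these classes. Unequal backgrounds were thus no trait of twin pairs alone. Where both heights and backgrounds differed, the higher peak had the higher background in 100 of 146 pairs (68.5%), against 66.6% at 1 to 10 kb and 62.9% at 100 to 1000 kb. The higher peak of a pair was longer in 125 of 160 pairs and had the larger fold in 101.

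The highest mean background of a pair, 3.49 fragments, was on chromosome 8 from 8145965 to 8147199, where heights of 31 and 16 gave folds of 7.77 and 5.35. Pairs with a mean background of 2.99 lay on chromosome 5 from 173880844 to 173881898, chromosome 9 from 110349997 to 110350784, and chromosome 1 from 193643462 to 193644141 and from 244510667 to 244511669. The lowest, 0.507, was on chromosome 11 from 109947332 to 109948400, where both peaks had a height of 12 and folds were 22.9 and 24.5. On chromosome 19 from 54713886 to 54714870 both heights were 13, with folds of 26.6 and 18.6. The next lowest was the first pair of the group of 3 on chromosome 11 named above, at 0.690. In 11 pairs both peaks had a background under 0.9, and in 23 both had 1.9 or more.

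Summits lay about as often on the side of the neighbour as on the other side. The summit lay on the near side of the peak's midpoint in 219 twin peaks, on the far side in 207 and at the midpoint in 3, a share of 51.4% (exact 95% interval 46.5 to 56.2%). In comparison peaks the share was 49.7%. Up to 400 bp between summits it was 63.8% (55.0 to 72.1%), but choosing pairs by a short distance between summits favours summits on the near side. With the distance taken between midpoints, the share up to 400 bp was 49.1% (39.7 to 58.6%). Both peaks of a pair enter these counts.

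Twin peaks were found on all 23 chromosomes. Chromosomes 2 (49), 1 and 3 (44 each) and 4 (36) held the most, and together these 4 chromosomes carried 40.3% of twin peaks and 33.6% of comparison peaks. As a share of peaks in range, chromosomes 19 (11.6%), 16 (10.9%), 3 (9.98%) and 2 (9.53%) were highest. The lowest shares were on chromosomes X (2.59%), 15 (3.23%) and 22 (3.39%). Most intervals included the overall 7.40%. Chromosome 3, with an interval of 7.52 to 13.1%, lay above it, and chromosomes 15 (1.49 to 6.86%) and X (0.883 to 7.33%) lay below. These intervals are not adjusted for 23 chromosomes, and linked peaks make them too narrow.

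**Figure D5:**
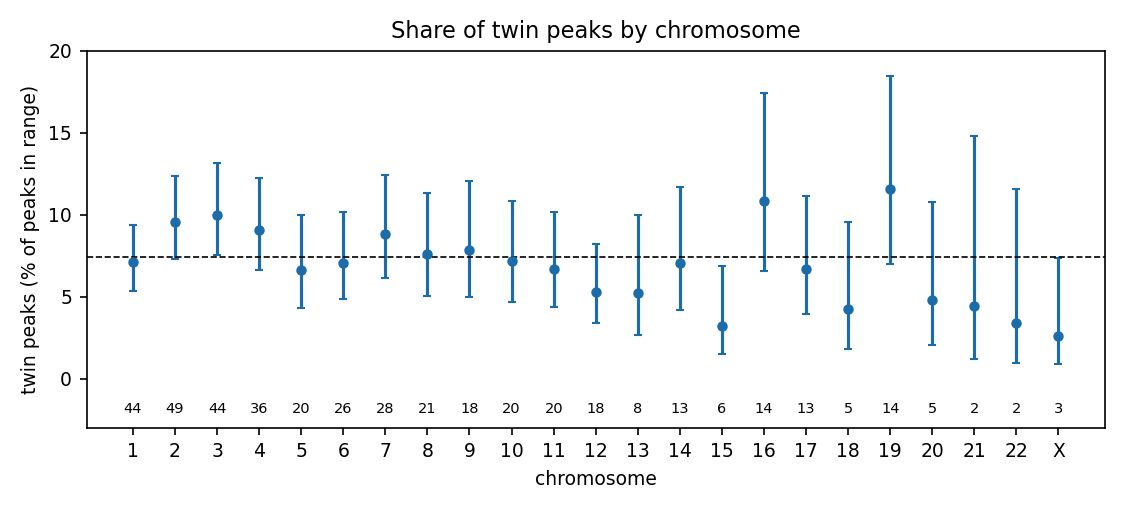
Twin peaks as a percentage of GATA6 peaks in the range of height and length (y axis) on each chromosome (x axis); bars are 95% Wilson intervals, the numbers above the axis are counts of twin peaks, and the dashed line is the overall share of 7.40%. Chromosomes 19 and 16 have the largest shares and wide intervals, from 14 twin peaks each.

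Among the chromosomes with the lowest shares, the median background at comparison peaks was 1.40 fragments on chromosome 15, 0.998 on chromosome 22 and 0.873 on chromosome X. Chromosomes 18, 20 and 21, with shares of 4.24%, 4.81% and 4.44%, had 0.998. Chromosome 1 had 1.40, at a share of 7.09%, and chromosomes 16 and 19 had 0.998 at the largest shares. A relation of share and background over all chromosomes was not tested.

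Groups with twin peaks were spread along chromosomes, and comparison peaks were not binned for reference. Twin peaks lay in 231 bins of 1 Mb, and the median distance from a group to the next on its chromosome was 5996 kb. In 207 bins there was 1 group, in 24 bins there were 2, and 0 bins held 3. At most 4 twin peaks shared a bin, in 8 bins, each of which held 5 to 9 peaks in range. Of these, the bin between 169 and 170 Mb of chromosome 1 held a group of 3 and, 1461 bp after its last summit, 1 further twin peak, with heights of 13 to 15 and a median background of 1.66 fragments. On chromosome 4 from 100 to 101 Mb, 4 twin peaks with heights of 14 to 28 lay within 8.97 kb. Between 123 and 124 Mb of chromosome 6 they lay within 28.9 kb, and on chromosome 3 from 113 to 114 Mb within 90.1 kb.

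The other 4 bins were chromosome 3 from 182 to 183, chromosome 12 from 27 to 28, chromosome 16 from 73 to 74 and chromosome 18 from 60 to 61 Mb, where 4 twin peaks were spread over 155 to 564 kb. Groups within 10 kb of the next were found 3 times, on chromosomes 1, 4 and 14. Dense regions of the list did not differ clearly in their share of twin peaks. In the 15 bins that held 15 or more peaks of any kind, 19 of 200 peaks in range were twin peaks, or 9.50% (95% Wilson interval 6.17 to 14.4%), an interval that includes the overall share.

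Beyond their partner, twin peaks had further neighbours more often than comparison peaks. Another peak lay over 1 and up to 10 kb away from 132 twin peaks, or 30.8% (95% Wilson interval 26.6 to 35.3%), and from 21.3% of comparison peaks. Over 1 and up to 100 kb away the shares were 73.2% (68.8 to 77.2%) and 63.3%, with means of 1.78 and 1.45 such peaks and a median of 1 in both. Between 100 and 1000 kb the means were 6.61 and 6.53. The difference in the number of neighbours was thus seen within 100 kb and not at the wider scale. Within chromosomes, the mean number up to 100 kb was higher for twin peaks on 14 of 20 and lower on 6.

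Peaks at the edges of the criteria are given for reference. Among peaks with a neighbour within 1000 bp and under 400 bp long, 34 had a height of 10 and 23 a height of 9, with median folds of 10.0 and 10.5 and median backgrounds of 0.998 and 0.856 fragments. Heights of 37 to 39 were found in 11 and heights of 40 to 42 in 7, with median folds of 24.8 and 21.1 and median backgrounds of 1.57 and 2.00. In the range of height, 7 such peaks were 380 to 399 bp long and 8 were 400 to 419 bp long, with median folds of 24.8 and 27.4 and median backgrounds of 1.40 and 0.998. Among peaks in range, 32 had their nearest summit 901 to 1000 bp away and 43 had it 1001 to 1100 bp away, with median folds of 12.0 and 12.2 and median backgrounds of 1.25 and 1.15. The edges of height and length rest on few peaks.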

How the data were processed

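The GATA6 peak list was used, which names GATA6 and LS174T and is taken to stand for the 3 GATA6 libraries. Reads were processed with CASAVA 1.8 and BWA 0.5.9-r16 on hg19, per the submitters' processing notes. The caller is not given in the sources used here. The same holds for its control and for pooling of libraries. Per the file headers, the pileup (called height) was deposited as a coverage signal in whole fragments at the summit, the fold enrichment as a linear ratio, and the p-value and q-value as −log10 values. Lengths and summit positions were deposited in bp, counted from 1. The depth of each library is unknown.

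Local background was computed as height over fold. The deposited −log10 p, recomputed as a Poisson probability from height and background, differed by at most 0.0159. Medians have 95% order-statistic (binomial) intervals. For a difference, the interval of the twin-peak median was shifted by the comparison median, taken as fixed. The 6 peaks elsewhere were left out, and 0 of them had a neighbour within 1000 bp. Pairs and bins named were the 5 with the largest summed height, closest, widest, most unequal and of highest background, the 3 of lowest background, all groups of 3, and the 8 bins with 4 twin peaks. The criteria, lists and alternatives were chosen with earlier results of these data known. The planned motif search was not run, since no hg19 sequence was used here. The code was run on simulated data, where all 115 planted pairs were returned. Each was planted to meet the criteria, without groups of 3 or partners outside them, so this checks the code only. Python 3.11.15, pandas 2.3.3 and scipy 1.17.1 were used.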

Additional observations from a re-analysis of the deposited data

How the results depend on the processing

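Of 58 values recomputed under alternative settings, 51 stayed within the interval of the reported value and 7 moved outside it. Many settings share most of their peaks, and medians of whole counts or of values on steps can hardly move. The count of 51 is thus no measure of stability. For counts, a factor of 1.5 of the reported count stood for the interval. Only the differences in background, fold, length, −log10 p and share with a further peak could change sign, and 0 of these did. The number of twin peaks went from 429 to 204 with a neighbour distance of 500 bp, to 674 with 2000 bp, and to 284 among peaks with a −log10 q of at least 5, as fewer or more peaks can then qualify. Intervals of differences are those of the twin-peak median less the comparison median, whose own error is left out. The difference in median fold, −1.97 as reported, was −0.61 with the highest twin peak of each group only (−1.61 to 0.36, which includes 0). It was −1.61 with the first of each group and −2.36 against comparison peaks with no summit within 10 kb. With comparison peaks reweighted to the heights of twin peaks it was −1.87. With comparison peaks reweighted to the heights of twin peaks, the difference in median −log10 p went from −1.09 to −0.48, and the cause was not tested. Bins with 4 twin peaks went from 8 to 0 with 1 peak per group, by construction. The difference in median background stayed between 0.174 and 0.296 fragments, the median spacing between 432 and 517.5 bp and the median ratio between 1.33 and 1.40. For background, the interval nearly reached 0 with the first twin peak of each group (0.000176 to 0.175) and without chromosomes 1 and 15 (0.000567 to 0.175). It was 0.0176 to 0.349 with a −log10 q of at least 5. As backgrounds lie on steps, a narrow range of this difference is no sign of stability. Twin peaks exceeded comparison peaks in the share with a further peak within 100 kb by 9.86 percentage points, and by 9.16 to 10.8 points under alternatives chosen after seeing the data. The share of summits toward the neighbour stayed between 49.0 and 51.1% under alternatives chosen likewise. The median number of peaks 1 to 100 kb away differed by 0 under each of its 7 alternatives. No paired analysis was possible because the list holds no value per library, and for the same reason no library could be left out in turn.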
